A study of Oryctolagus cuniculus with 4 samples.

Results

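Solute carriers (SLC genes) were chosen by name as every row of the deposited expression table whose gene symbol begins with SLC and a digit. This gave 245 of 13913 genes, none of them picked by a measured value. The table came from single-cell RNA-seq of rabbit ear hypertrophic scar (HS), with 2 libraries in the HS group and 2 in the drug-loaded MNs group. All rabbits were wild type females, bought at an age of 10 to 12 weeks, and scars followed wounds cut into the ventral ear. HS tissues stayed untreated. Scars of the drug-loaded MNs group received 3 weekly patches of separating microneedles, starting on day 22 after wounding, whose tips carry 5-FuA, a derivative of 5-fluorouracil, bound to a peptide. Tissues of both groups were taken on day 43. Drug-free microneedles had no library here, so the drug and the needles cannot be told apart. The study calls the samples biologically independent, without saying which animal each tissue came from. P-values measure the spread between these libraries, which may be partly technical.

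Solute carriers are membrane proteins that move small molecules across the plasma membrane or the membranes of organelles, and families are numbered by sequence and substrate. Equilibrative carriers (SLC29) let nucleosides pass down their gradient, whereas concentrative carriers (SLC28) couple uptake to sodium. In skin, carriers feed keratinocytes and fibroblasts with glucose and amino acids, load melanosomes, and deliver the zinc, sulfate and nucleotide sugars that matrix production uses.

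Each value below is relative expression in units, where 1 unit is 1 part in 1000000 of the library total. Every library had been scaled to a common total, so depth was unknown, and the 4 values per gene are averages over a whole library. Fewer cells of a type and less RNA per cell cannot be told apart in such values. Correction for gene length was not shown for this table, and levels are not compared between genes.

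Before the comparison of groups, the libraries were compared with each other. Mitochondrially encoded genes took 2.75% and 2.80% of the HS libraries and 4.37% and 4.58% of the drug-loaded MNs libraries. Keratinocyte, fibroblast and endothelial markers (KRT5, KRT10, COL1A2, PECAM1 and others) were above 0 in every library. The macrophage list (8 of 9 genes in the table, all 8 higher) summed to 121 and 132 units in HS and to 290 and 287 units in drug-loaded MNs. The fibroblast list (6 of 7 genes in the table, all 6 higher) summed to 22996 and 22526 units in HS and to 44682 and 48616 units in drug-loaded MNs. No marker of either list was at 0 in all libraries. On the first principal component over all tested genes HS replicate 1 stood apart, at 37.2, with HS replicate 2 at -0.95 and both drug-loaded MNs libraries near -18 (-18.3 and -17.9). Over the SLC genes alone the first component did not order libraries by group. HS replicate 2 lay at -4.09 and drug-loaded MNs replicate 1 at 3.07, while HS replicate 1 (0.60) and drug-loaded MNs replicate 2 (0.42) lay between them.

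The SLC genes together took 0.625% and 0.579% of the HS libraries and 0.569% and 0.530% of the drug-loaded MNs libraries. The groups did not overlap in this sum, but HS replicate 2 and drug-loaded MNs replicate 1 lay closer to each other than the HS libraries did. A large part of the sum came from the mitochondrial family SLC25, which held 3035 and 2327 units in HS and 2495 and 2124 units in drug-loaded MNs, with overlap between the groups.

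To compare the groups gene by gene, log2(value + 1) was fitted with limma over the 9348 genes whose mean reached 1 unit. Of the 245 SLC genes, 156 were tested. None of the 156 passed an adjusted p of 0.05, against 0.0428% of all tested genes. At an unadjusted p under 0.05, 9 SLC genes (5.77%) were higher in drug-loaded MNs, where the background was 7.26%, and 7 (4.49%) were lower, where the background was 1.39%. Among the 9 is SLC16A12, 1 of 5 tested SLC genes with a group mean below the filter, and without those 5 genes 8 were higher and 7 lower. The split into higher and lower depended on scaling: median ratio scaling gave 4 higher and 10 lower, and quantile normalization gave 2 higher and 12 lower. The split over all tested genes moved the same way. It was 679 higher and 130 lower in the main fit, 494 and 277 of 9336 under median ratio scaling, and 428 and 299 of 9348 under quantile normalization. The SLC split also depended on single libraries. Its counts with 1 library left out are listed only as ranges, with the dependence on processing below. These ranges are not counted as support, as 1 group then held a lone library. Groups did not overlap in 43 SLC genes that were higher (27.6%, background 26.6%) and in 26 that were lower (16.7%, background 11.2%). The share of higher genes near the background is no feature of the SLC genes.

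Differences between groups were of the same order as the spread within groups. Of the 156 SLC genes, 99 were higher (63.5%), against 64.6% of all tested genes. Counts of higher and lower genes by class or list, below, are best read against that share. The median log2 fold change of the 156 genes was 0.11 and that of all tested genes was 0.12. Both medians depended on scaling, with -0.02 for SLC genes and -0.01 for all genes under median ratio scaling, and -0.07 and -0.02 under quantile normalization. A log2 fold change below is therefore best read against the 0.12 of all genes. With 1 library left out the SLC median ran from 0.0025 (without HS replicate 1) to 0.16. The median size of the change, regardless of sign, was 0.26 for SLC genes and 0.23 for all genes. Within groups, the median of the pooled SD was 0.23 on the log2 scale for SLC genes and 0.25 for all genes. Only 2 SLC genes (1.28%) exceeded an absolute log2 fold change of 1, both of them peptide carriers, whereas 3.38% of all tested genes did. The remaining 154 ran from -0.90 in SLC35E4 to 0.94 in SLC41A2.

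**Figure D1:**
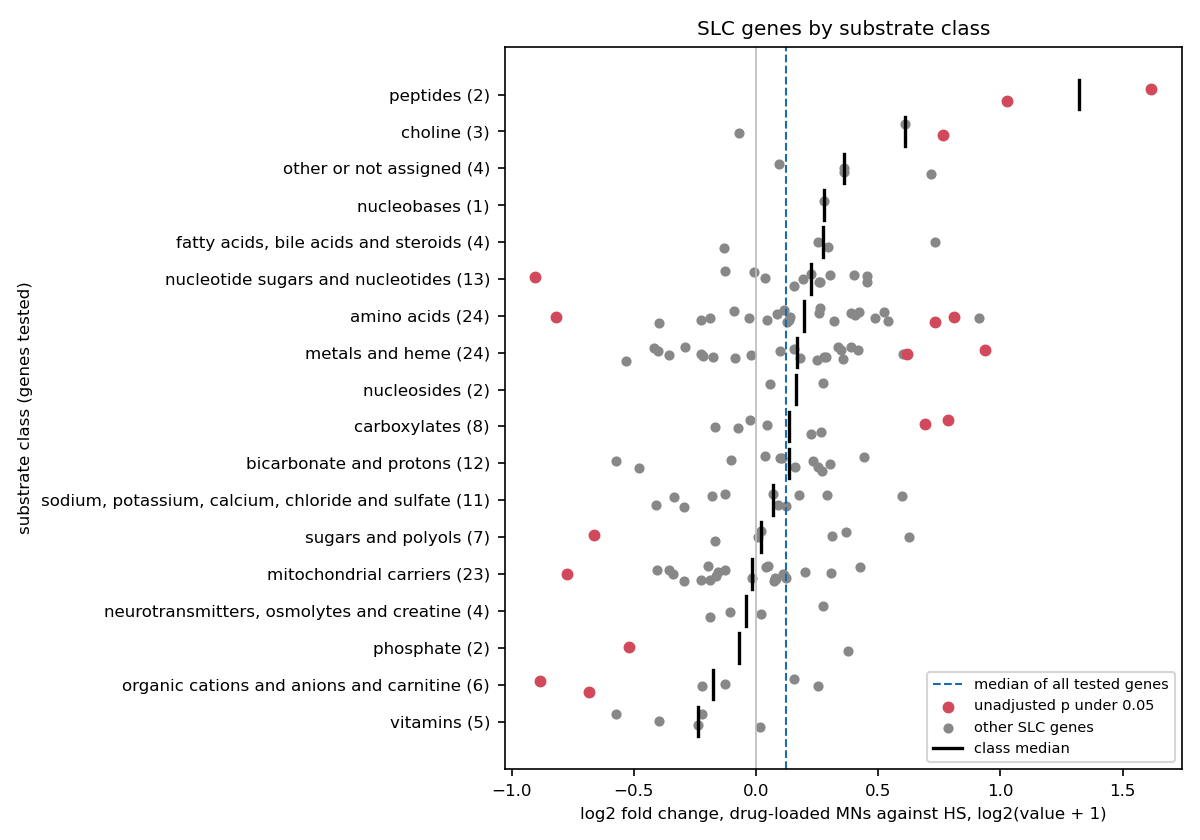
Log2 fold changes of the tested SLC genes (x axis, drug-loaded MNs against HS on the log2(value + 1) scale) by substrate class (y axis, number of genes tested in parentheses). Points are genes, red where the unadjusted limma p was under 0.05, black bars are class medians, and the dashed line is the median of all tested genes at 0.12. The peptide carriers lie farthest to the right, at 1.03 and 1.62.

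The nucleoside carriers were looked at apart, since the drug belongs to the fluoropyrimidines. The table held 3 of them, SLC28A2, SLC29A1 and SLC29A3, and other SLC28 and SLC29 members were not analysed here. Neither of the 2 that were tested had an unadjusted p under 0.05.

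SLC29A1 (ENSOCUG00000017891) encodes ENT1, the main equilibrative nucleoside carrier of the plasma membrane. It stood at 64.6 and 52.6 units in HS and at 69.9 and 52.6 units in drug-loaded MNs. In both groups replicate 1 was the higher library, and the groups overlapped. Its log2 fold change was 0.06 (SE 0.25, adjusted p 0.970 by limma), with a 95% interval from -0.53 to 0.64. The direction was not stable, as the value was -0.09 with median ratio scaling, -0.01 after quantile normalization, -0.09 with HS replicate 2 left out and -0.14 with drug-loaded MNs replicate 1 left out.

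SLC29A3 (ENSOCUG00000006953) encodes ENT3, which exports nucleosides from lysosomes, and its loss in humans causes a histiocytosis with skin changes. Its values were 8.32 and 7.20 units in HS and 9.11 and 10.1 units in drug-loaded MNs. Both drug-loaded MNs libraries lay above both HS libraries, by a small margin. The log2 fold change was 0.27 (SE 0.27, adjusted p 0.856 by limma), with a 95% interval from -0.36 to 0.91.

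SLC28A2 (ENSOCUG00000014340) encodes CNT2, a sodium-coupled carrier of purine nucleosides and uridine. It was below the filter, at 0.0392 and 0.452 units in HS and at 0.175 and 0.422 units in drug-loaded MNs, and was not tested. The HS libraries alone spanned the range of the drug-loaded MNs libraries. In the RefSeq gene list it overlaps SHF, which stood between 6.64 and 11.8 units. The sources do not state whether counting used the strand, so reads of overlapping genes, here and below, could not be told apart. In that list 108 SLC genes overlap another gene, and 34 overlap a gene of the expression table. Only some of these overlaps are named below. SLC15A2 overlaps a long noncoding RNA, and SLC50A1 overlaps DPM3.

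SLC43A3 (ENSOCUG00000012561) belongs to an amino acid family but carries purine nucleobases. It stood at 48.8 and 28.9 units in HS and at 50.5 and 41.4 units in drug-loaded MNs. Again replicate 1 was higher in both groups and the groups overlapped. On the log2 scale the fold change was 0.28 (SE 0.30, adjusted p 0.869 by limma), with a 95% interval from -0.43 to 0.98, and it was -0.09 without HS replicate 2.

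**Figure D2:**
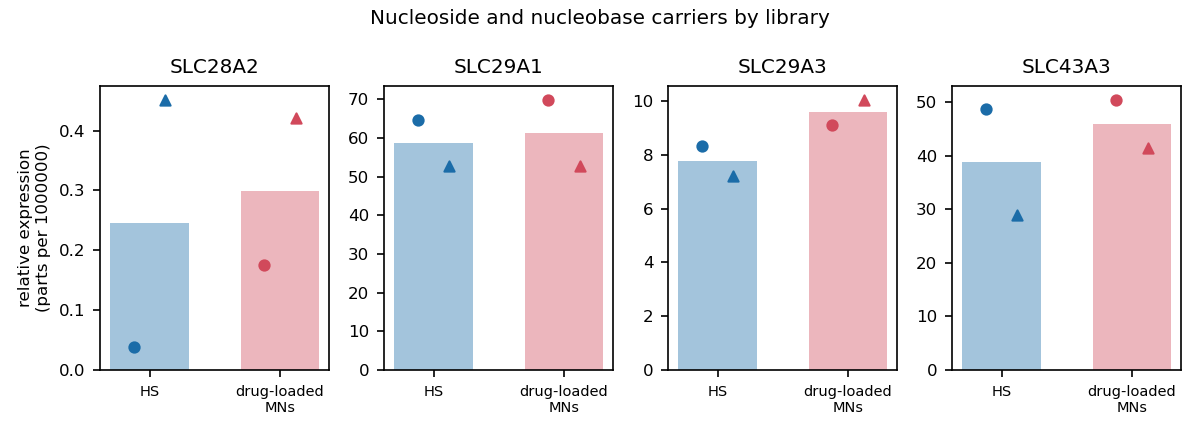
Relative expression (y axis, parts per 1000000 of the library total, a scale of its own in each panel) of the nucleoside carriers SLC28A2, SLC29A1 and SLC29A3 and the nucleobase carrier SLC43A3 in HS (blue) and drug-loaded MNs (red). Bars are group means, circles are replicate 1 and triangles are replicate 2. Groups overlap in every panel except SLC29A3, where HS reaches 8.32 and drug-loaded MNs starts at 9.11.

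Another carrier handles pyrimidine nucleotides inside the cell. SLC25A33 (ENSOCUG00000004163) moves pyrimidine nucleotides across the inner mitochondrial membrane. It stood at 34.5 and 32.0 units in HS and at 18.2 and 19.9 units in drug-loaded MNs. All drug-loaded MNs values lay below all HS values, and the gap between the groups was wider than the gap within either. The log2 fold change was -0.77 (SE 0.24, limma p 0.0129, adjusted p 0.406), and it lay between -0.83 and -0.71 with 1 library left out.

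Peptide carriers held the largest differences of the SLC genes. The table held 4 SLC15 genes, of which SLC15A2 and SLC15A3 were tested, and both were higher at an unadjusted p under 0.05, where the share over all tested genes was 7.26%. SLC15A2 (ENSOCUG00000001853) encodes PEPT2, a proton-coupled carrier that takes up dipeptides and tripeptides. It stood at 4.40 and 3.42 units in HS and at 14.5 and 13.5 units in drug-loaded MNs, or 3.91 ± 0.690 and 13.99 ± 0.707 units (SD, n = 2 each). Both drug-loaded MNs libraries lay far above both HS libraries, and the libraries of a group lay close together. On the log2 scale the fold change was 1.62 (SE 0.28, limma p 0.000528, adjusted p 0.264), with a 95% interval from 0.97 to 2.27. Leaving out 1 library moved it only between 1.47 and 1.76. Its unadjusted p stayed under 0.05 in every alternative that kept all 4 libraries. In a limma fit that added the replicate number as a block, with 1 residual degree of freedom, the adjusted p was 0.00256. No other fit of all 4 libraries brought the adjusted p under 0.05.

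SLC15A3 (ENSOCUG00000015723) encodes a lysosomal carrier of histidine and peptides that is known from macrophages and dendritic cells. It stood at 4.14 and 2.70 units in HS and at 6.64 and 9.33 units in drug-loaded MNs. The groups did not overlap, but the drug-loaded MNs libraries differed from each other by about as much as the gap between the groups. The log2 fold change was 1.03 (SE 0.32, limma p 0.0141, adjusted p 0.411). The sum of the macrophage list was higher in the same libraries, as given above, and its part in this result was not tested. In the RefSeq list SLC15A3 overlaps TMEM132A, whose log2 fold change was -0.09. SLC15A1 and SLC15A5 were below the filter, and SLC15A5 was listed at 0 in both HS libraries and at 0.0238 and 0.0107 units in drug-loaded MNs.

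**Figure D3:**
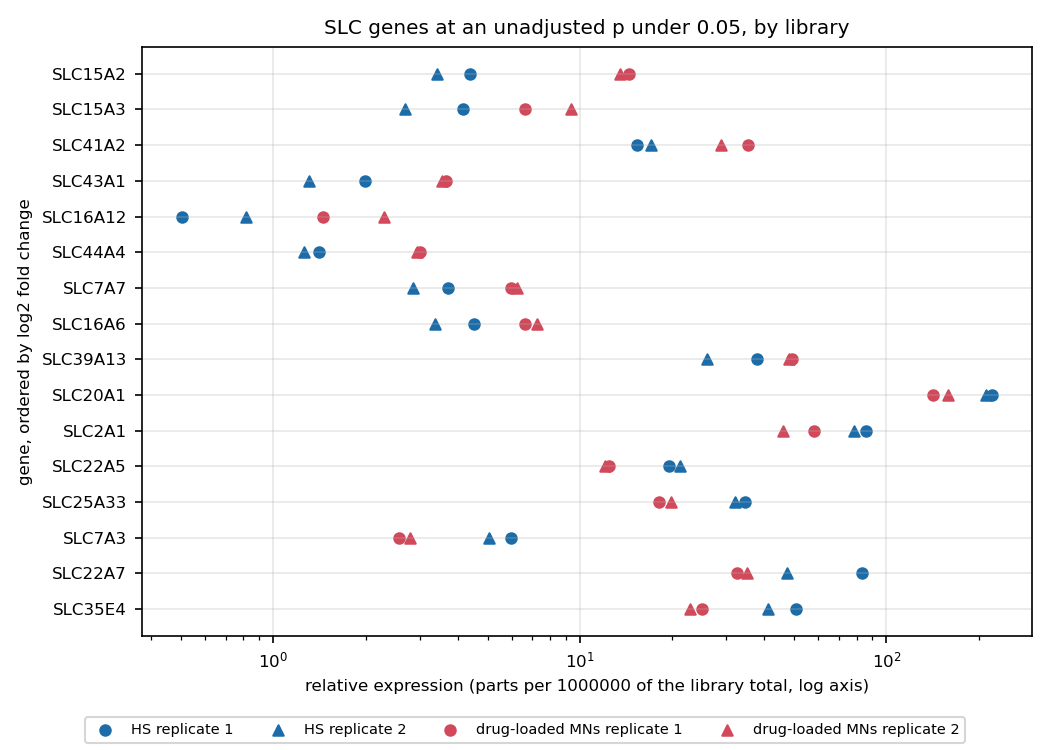
Relative expression (x axis, parts per 1000000 of the library total, log axis) in each of the 4 libraries for the 16 SLC genes at an unadjusted p under 0.05 (y axis, ordered by log2 fold change). Blue marks HS, red marks drug-loaded MNs, circles replicate 1 and triangles replicate 2. In SLC15A2, at the top, HS stops at 4.40 units and drug-loaded MNs starts at 13.5 units. SLC16A12 passed the filter only through the drug-loaded MNs libraries and is shown as a description.

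The table held 41 amino acid carriers, and 24 of them were tested. Among them 18 were higher (75%, against 64.6% of all tested genes) and 6 lower. Their median log2 fold change was 0.20 against 0.12 for all genes, and it became -0.02 under quantile normalization. Under an unadjusted p of 0.05 there were 2 higher, SLC43A1 and SLC7A7, and 1 lower, SLC7A3 (8.33% and 4.17%, against 7.26% and 1.39% of all tested genes). With 1 library left out the class median ran from 0.03 (without HS replicate 1) to 0.26.

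SLC43A1 (ENSOCUG00000026004) encodes LAT3, a carrier of branched-chain amino acids. It stood at 1.99 and 1.31 units in HS and at 3.67 and 3.55 units in drug-loaded MNs, a log2 fold change of 0.81 (SE 0.30, limma p 0.0301, adjusted p 0.490). The groups did not overlap, but all 4 values were low. The unadjusted p did not stay under 0.05 in every alternative that kept all 4 libraries. SLC7A7 (ENSOCUG00000000724) encodes y+LAT1, a light chain for cationic amino acids that is found in macrophages and in absorptive epithelia. It stood at 3.73 and 2.86 units in HS and at 5.96 and 6.24 units in drug-loaded MNs, a log2 fold change of 0.73 (SE 0.29, limma p 0.0366, adjusted p 0.524). Its unadjusted p did not stay under 0.05 in every alternative that kept all 4 libraries. Like SLC15A3, it was higher in the libraries in which the macrophage list was higher, and the part of that list was not tested. SLC7A7 overlaps OXA1L in the RefSeq list, and OXA1L had a log2 fold change of 0.21.

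SLC7A3 (ENSOCUG00000010551) encodes CAT3, a carrier of arginine and lysine. It was lower in drug-loaded MNs, with 5.97 and 5.06 units in HS and 2.57 and 2.80 units in drug-loaded MNs. On the log2 scale the fold change was -0.82 (SE 0.29, limma p 0.0227, adjusted p 0.450). Another carrier of arginine, SLC7A2, went the other way, with 7.77 and 19.04 units in HS and 23.2 and 24.7 units in drug-loaded MNs. In SLC7A2 the HS libraries lay far apart, and the log2 fold change of 0.91 (SE 0.40) had a limma p of 0.0525 and an adjusted p of 0.585, and it ran from 0.31 to 1.51 with 1 library left out. SLC38A2, which takes up glutamine and other neutral amino acids, stood at 362 and 564 units in HS and at 338 and 348 units in drug-loaded MNs, a log2 fold change of -0.40 (SE 0.26, adjusted p 0.767 by limma). Here HS replicate 2 alone was high, and without it the log2 fold change was -0.08. SLC7A11, the cystine carrier that feeds glutathione synthesis, stood at 2.82 and 5.52 units in HS and at 5.50 and 5.85 units in drug-loaded MNs, and the groups overlapped (log2 fold change 0.42, adjusted p 0.817 by limma).

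Of the sugar carriers, 1 had an unadjusted p under 0.05 and was lower (14.3%, against 1.39% of all tested genes). SLC2A1 (ENSOCUG00000005924) encodes GLUT1, the basal glucose carrier of many cells, including keratinocytes. It stood at 86.0 and 78.3 units in HS and at 57.9 and 45.8 units in drug-loaded MNs, or 82.2 ± 5.44 and 51.9 ± 8.55 units (SD, n = 2 each). Both drug-loaded MNs libraries lay below both HS libraries. The log2 fold change was -0.66 (SE 0.23, limma p 0.0234, adjusted p 0.458), with a range from -0.83 to -0.50 when 1 library was left out. Its unadjusted p did not stay under 0.05 in every alternative. Basal keratinocyte markers (4 of 5 genes in the table, 3 lower, none at 0 in all libraries) summed to 8095 and 5578 units in HS and to 7485 and 3938 units in drug-loaded MNs. That sum overlapped between groups while SLC2A1 did not, and its part in the result was not tested.

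Of the 7 sugar and polyol carriers tested, 5 were higher and 2 lower, with a median of 0.02, which median ratio scaling took to -0.10 and quantile normalization to -0.22. The widest spread within groups of any SLC gene was in this class. SLC50A1, a sugar carrier of the SWEET type, stood at 59.5 and 11.1 units in HS and at 32.2 and 51.7 units in drug-loaded MNs. Its log2 fold change was 0.63 with all libraries and ranged from -0.53 to 1.79 with 1 library left out, so no direction could be read. SLC50A1 was singled out after its values were seen, as were SLC7A2, SLC44A1, SLC39A7, SLC30A7, SLC30A1, SLC11A2, SLC22A4, SLC25A20, SLC35D1 and SLC34A2.

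Among carboxylate carriers 8 were tested (5 higher, 3 lower, median 0.13, which was -0.09 under quantile normalization and -0.12 without HS replicate 2). Of these 8 genes, 2 were at an unadjusted p under 0.05, SLC16A6 and SLC16A12, both higher (against 7.26% of all tested genes). However, SLC16A12 entered the test through the group in which it was high and is not counted as support. SLC16A6 (ENSOCUG00000001594) encodes MCT7, known for the export of ketone bodies. It stood at 4.51 and 3.38 units in HS and at 6.63 and 7.26 units in drug-loaded MNs, a log2 fold change of 0.69 (SE 0.29, limma p 0.0462, adjusted p 0.561). Its unadjusted p was close to 0.05 and did not stay under it in every alternative that kept all 4 libraries. This gene overlaps ARSG in the RefSeq list, and ARSG had a log2 fold change of 0.26. SLC16A12 (ENSOCUG00000014498) encodes MCT12, a creatine carrier, and stood at 0.504 and 0.813 units in HS and at 1.45 and 2.31 units in drug-loaded MNs. It passed the filter on low values only through the drug-loaded MNs libraries, so its log2 fold change of 0.79 is given as a description, without its p. SLC16A1, the lactate carrier MCT1, stood at 28.9 and 15.4 units in HS and at 29.3 and 22.5 units in drug-loaded MNs, with overlap (log2 fold change 0.27, adjusted p 0.889 by limma).

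Among carriers of metals and heme, 24 were tested, 14 higher and 10 lower, with a median of 0.17 that was 0.03 under median ratio scaling, 0.01 under quantile normalization and 0.05 without HS replicate 1. An unadjusted p under 0.05 was reached by 2 that were higher (8.33%, against 7.26% of all tested genes). The groups did not overlap in 10 that were higher and 5 that were lower (62.5%, against 37.8% of all tested genes). SLC41A2 (ENSOCUG00000016750), a magnesium carrier, stood at 15.3 and 17.1 units in HS and at 35.4 and 28.8 units in drug-loaded MNs. Its drug-loaded MNs values were both far above the HS values. On the log2 scale the fold change was 0.94 (SE 0.25, limma p 0.0066, adjusted p 0.344), and its unadjusted p did not stay under 0.05 in every alternative.

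SLC39A13 (ENSOCUG00000005557) encodes ZIP13, a zinc carrier of the secretory pathway whose loss causes a form of Ehlers-Danlos syndrome, a disorder of collagen. It stood at 38.0 and 26.0 units in HS and at 49.3 and 48.2 units in drug-loaded MNs, a log2 fold change of 0.62 (SE 0.26, limma p 0.0487, adjusted p 0.572). The groups did not overlap, and HS replicate 2 was the lowest library. Without it the log2 fold change was 0.35. The unadjusted p did not stay under 0.05 in every alternative that kept all 4 libraries. The sum of the fibroblast list was higher in the same libraries, and its part in this result was not tested.

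SLC39A7 and SLC30A7, also zinc carriers of the secretory pathway, were higher in drug-loaded MNs without overlap, by small margins. They were picked after their values were seen, and 26.6% of all tested genes were higher without overlap. Of other zinc carriers, SLC30A5 and SLC30A6 did not overlap (log2 fold changes 0.39 and 0.25), and SLC39A11 did (-0.09). SLC39A7 stood at 73.7 and 71.2 units in HS and at 95.7 and 90.2 units in drug-loaded MNs, and SLC30A7 stood at 31.8 and 34.8 units and at 42.0 and 42.6 units. Their log2 fold changes were 0.36 (adjusted p 0.739 by limma) and 0.34 (adjusted p 0.767 by limma). SLC30A1, which exports zinc from the cell, stood at 27.6 and 29.6 units in HS and at 18.9 and 23.7 units in drug-loaded MNs, a log2 fold change of -0.42 (SE 0.25, adjusted p 0.739 by limma). None of these genes had an unadjusted p under 0.05.

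Of the iron carriers, SLC40A1 and SLC11A1 overlapped between groups, and SLC11A2 did not. SLC11A2 stood at 5.97 and 7.996 units in HS and at 8.29 and 9.07 units in drug-loaded MNs. Its log2 fold change was 0.29 (adjusted p 0.856 by limma). SLC40A1, the iron exporter ferroportin, stood at 26.7 and 80.2 units in HS and at 37.6 and 55.5 units in drug-loaded MNs, a log2 fold change of -0.02 (SE 0.48, adjusted p 0.995 by limma). In both groups replicate 2 was the higher library, and the HS libraries lay farther apart than the drug-loaded MNs libraries. SLC11A1 encodes NRAMP1, a phagosomal metal carrier of macrophages. It stood at 2.67 and 0.952 units in HS and at 2.40 and 2.75 units in drug-loaded MNs, where the groups overlapped (log2 fold change 0.42, adjusted p 0.837 by limma), although every macrophage marker tested was higher in drug-loaded MNs.

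Organic cation, organic anion and carnitine carriers gave 6 tested genes, 4 lower and 2 higher. Their median was -0.17, and 0.0083 without drug-loaded MNs replicate 1. The 2 genes at an unadjusted p under 0.05 were both lower (33.3%, against 1.39% of all tested genes). SLC22A7 (ENSOCUG00000005788) encodes the organic anion carrier OAT2. It stood at 83.4 and 47.4 units in HS and at 32.5 and 35.0 units in drug-loaded MNs, or 65.4 ± 25.4 and 33.7 ± 1.74 units (SD, n = 2 each). HS replicate 1 alone stood far above the other libraries. The log2 fold change was -0.88 (SE 0.30, limma p 0.0213, adjusted p 0.441), and leaving out 1 library moved it between -1.28 and -0.48, the latter without HS replicate 1. SLC22A7 overlaps CRIP3 in the RefSeq list, which was under 1 unit in all libraries.

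SLC22A5 (ENSOCUG00000004158) encodes OCTN2, the carnitine uptake carrier that fatty acid oxidation depends on. It stood at 19.5 and 21.2 units in HS and at 12.5 and 12.1 units in drug-loaded MNs. Here the libraries of each group lay close together and the groups were apart, at a log2 fold change of -0.68 (SE 0.25, limma p 0.0277, adjusted p 0.484). The related SLC22A4 overlapped between groups, at 12.6 and 18.5 units in HS and at 9.80 and 19.6 units in drug-loaded MNs. Its log2 fold change ran from -0.59 to 0.34 with 1 library left out. SLC25A20, which moves acylcarnitine into mitochondria, stood at 10.2 and 11.5 units in HS and at 8.36 and 8.32 units in drug-loaded MNs, a log2 fold change of -0.34 (SE 0.27, adjusted p 0.811 by limma).

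Of 23 mitochondrial carriers (SLC25) tested, 11 were higher (47.8%, against 64.6% of all tested genes) and 12 lower. Their median was -0.02, against 0.12 for all genes. Median ratio scaling took it to -0.16 (all genes -0.01), and quantile normalization took it to -0.18 (all genes -0.02). With 1 library left out it ran from -0.15 to 0.17, the latter without HS replicate 2. Apart from SLC25A33, described above, none had an unadjusted p under 0.05. SLC25A5, an ADP/ATP carrier, stood at 1304 and 854 units in HS and at 1017 and 729 units in drug-loaded MNs. SLC25A3, the mitochondrial phosphate carrier, stood at 1216 and 892 units in HS and at 948 and 880 units in drug-loaded MNs. In both genes replicate 1 was the higher library of each group and the groups overlapped, with log2 fold changes of -0.29 (adjusted p 0.857 by limma) and -0.19 (adjusted p 0.891 by limma). SLC25A4, the ADP/ATP carrier of muscle and heart, had a log2 fold change of 0.20 (adjusted p 0.891 by limma). Each of these 3 carriers changed sign when HS replicate 1 was left out. The groups did not overlap in 1 SLC25 gene that was higher and in 6 that were lower (4.35% and 26.1%, against 26.6% and 11.2% of all tested genes).

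Phosphate carriers held 1 gene at an unadjusted p under 0.05 among 2 tested, which was lower (against 1.39% of all tested genes). SLC20A1 (ENSOCUG00000001772) encodes PiT1, a sodium-coupled phosphate carrier found in most cells. It stood at 220.1 and 211 units in HS and at 142 and 159 units in drug-loaded MNs, or 216 ± 6.25 and 150.3 ± 12.4 units (SD, n = 2 each). The drug-loaded MNs libraries were lower by more than the spread of either group, at a log2 fold change of -0.52 (SE 0.21, limma p 0.0404, adjusted p 0.541). The other phosphate carrier tested, SLC34A2, overlapped between groups, at 2.66 and 5.32 units in HS and 3.32 and 8.02 units in drug-loaded MNs. Its log2 fold change of 0.38 (adjusted p 0.879 by limma) ran from -0.15 to 0.91 with 1 library left out.

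Nucleotide sugar carriers (SLC35) bring the building blocks of glycans into the endoplasmic reticulum and Golgi, and the family also holds members of unknown substrate. Of 13 tested, 10 were higher and 3 lower, with a median of 0.23 that was 0.12 with median ratio scaling and 0.03 after quantile normalization. At an unadjusted p under 0.05 none was higher and 1 was lower (7.69%, against 1.39% of all tested genes). SLC35E4 (ENSOCUG00000011606), one of those without a known substrate, stood at 50.6 and 41.0 units in HS and at 24.9 and 22.9 units in drug-loaded MNs. It was lower in both drug-loaded MNs libraries, at a log2 fold change of -0.90 (SE 0.24, limma p 0.00657, adjusted p 0.344). Its unadjusted p stayed under 0.05 in every alternative that kept all 4 libraries. SLC35D1, which carries UDP-sugars for chondroitin sulfate, stood at 7.24 and 7.87 units in HS and at 10.96 and 9.67 units in drug-loaded MNs, a log2 fold change of 0.40 (adjusted p 0.767 by limma).

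Choline carriers held 1 gene at an unadjusted p under 0.05 among 3 tested, which was higher (33.3%, against 7.26% of all tested genes). SLC44A4 (ENSOCUG00000006970) was low in all libraries, at 1.41 and 1.26 units in HS and at 3.01 and 2.94 units in drug-loaded MNs. Replicates of each group agreed closely, and the log2 fold change was 0.77 (SE 0.29, limma p 0.0316, adjusted p 0.502). Its unadjusted p did not stay under 0.05 in every alternative that kept all 4 libraries. SLC44A1, the choline carrier of most tissues, stood at 26.6 and 39.7 units in HS and at 57.2 and 43.9 units in drug-loaded MNs, a log2 fold change of 0.61 (SE 0.28, limma p 0.0652, adjusted p 0.624).

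**Figure D4:**
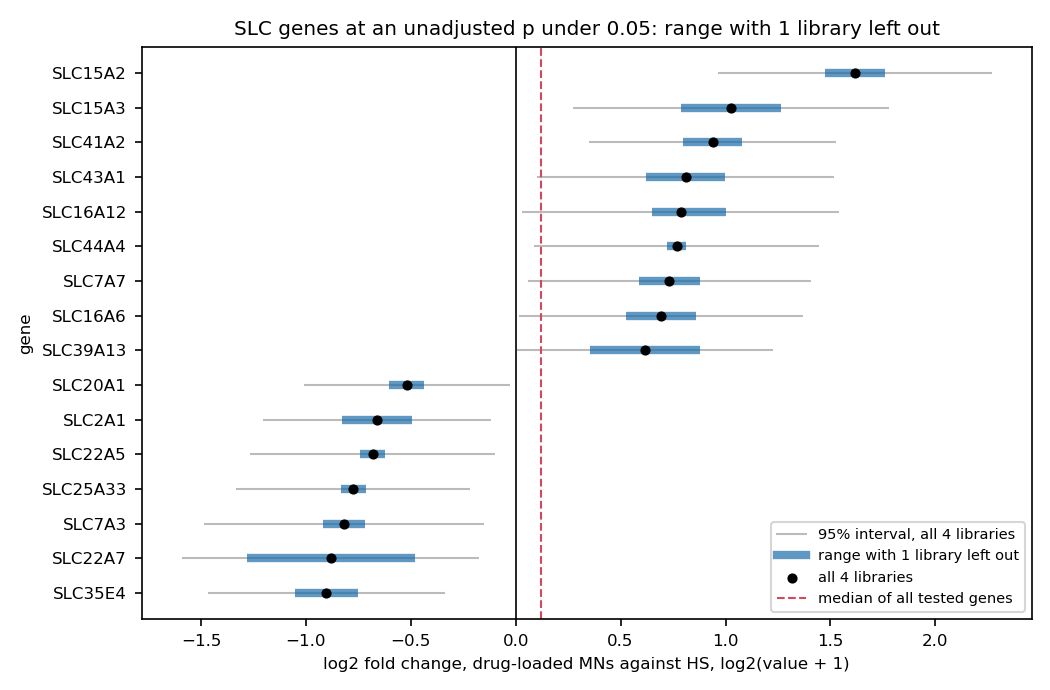
Log2 fold change (x axis, drug-loaded MNs against HS on the log2(value + 1) scale) of the 16 SLC genes at an unadjusted p under 0.05 (y axis). Black points use all 4 libraries, thin grey lines are 95% limma intervals, thick blue lines span the values with 1 library left out, and the dashed line is the median of all tested genes at 0.12. SLC22A7 has the widest blue line, from -1.28 to -0.48. SLC16A12 passed the filter only through the drug-loaded MNs libraries, so its interval is a description. No blue line crosses 0, and none could, since the groups of these genes do not overlap.

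No gene of the remaining classes had an unadjusted p under 0.05. Of 12 carriers of bicarbonate and protons, 9 were higher and 3 lower (median 0.13, and -0.05 under quantile normalization). SLC4A9, an anion exchanger, had the smallest p of that class, at 2.69 and 3.48 units in HS and 1.62 and 1.86 units in drug-loaded MNs (log2 fold change -0.57, adjusted p 0.698 by limma). Of 11 carriers of sodium, potassium, calcium, chloride and sulfate, 6 were higher and 5 lower (median 0.07, and negative under median ratio scaling at -0.06 and quantile normalization at -0.16). The sulfate carrier SLC13A4 stood at 1.13 and 0.763 units in HS and 2.84 and 1.24 units in drug-loaded MNs (log2 fold change 0.60).

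Vitamin carriers were lower in 4 of 5 tested genes, with a median of -0.24. The thiamine carrier SLC19A2 stood at 31.4 and 28.2 units in HS and at 24.8 and 20.1 units in drug-loaded MNs, without overlap (log2 fold change -0.40, SE 0.25, adjusted p 0.747 by limma). Of 4 carriers of neurotransmitters, osmolytes and creatine, 2 were higher and 2 lower (median -0.04). The taurine carrier SLC6A6 was at 35.8 and 32.0 units in HS and at 30.2 and 29.1 units in drug-loaded MNs, and the polyamine carrier SLC18B1 was at 12.9 and 8.88 units and at 13.1 and 13.2 units. Their log2 fold changes were -0.19 (adjusted p 0.889 by limma) and 0.27 (adjusted p 0.863 by limma).

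Of 4 carriers of fatty acids, bile acids and steroids, 3 were higher and 1 lower (median 0.27). SLC27A6, a fatty acid carrier, stood at 15.2 and 12.7 units in HS and at 31.5 and 17.8 units in drug-loaded MNs. Here drug-loaded MNs replicate 1 alone was high, and the log2 fold change of 0.73 (SE 0.32, limma p 0.0563, adjusted p 0.599) ranged from 0.34 to 1.13 with 1 library left out. Among 4 tested genes of no assigned class, all higher, SLC45A3 stood at 0.833 and 0.611 units in HS and at 1.34 and 2.41 units in drug-loaded MNs (log2 fold change 0.72). Like SLC13A4, it passed the filter through the drug-loaded MNs libraries alone, so no p is given for either. SLC7A6OS carries an SLC symbol because it lies opposite SLC7A6 and is no carrier. It was at 14.5 and 12.1 units in HS and at 16.5 and 13.8 units in drug-loaded MNs (log2 fold change 0.18, adjusted p 0.902 by limma).

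Carriers of melanosomes differed between replicates rather than between groups. SLC24A5, a calcium exchanger of the pigment granule, stood at 15.9 and 7.10 units in HS and at 17.6 and 8.36 units in drug-loaded MNs. SLC45A2, a melanosomal carrier needed for pigmentation, stood at 5.36 and 1.09 units in HS and at 5.94 and 2.16 units in drug-loaded MNs. In both genes replicate 1 of each group was the high library and replicate 2 the low one. The 6 melanocyte markers (4 higher, 2 lower, none at 0 in all libraries) summed to 362 and 162 units in HS and to 340 and 174 units in drug-loaded MNs, in the same order, and their part in these values was not tested. Log2 fold changes were 0.17 for SLC24A5 (SE 0.46, adjusted p 0.948 by limma) and 0.36 for SLC45A2 (SE 0.58, adjusted p 0.912 by limma), and both turned negative when either HS replicate 2 or drug-loaded MNs replicate 1 was left out. SLC24A5 was also negative under quantile normalization (-0.04), and it overlaps MYEF2, whose log2 fold change was 0.49.

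**Figure D5:**
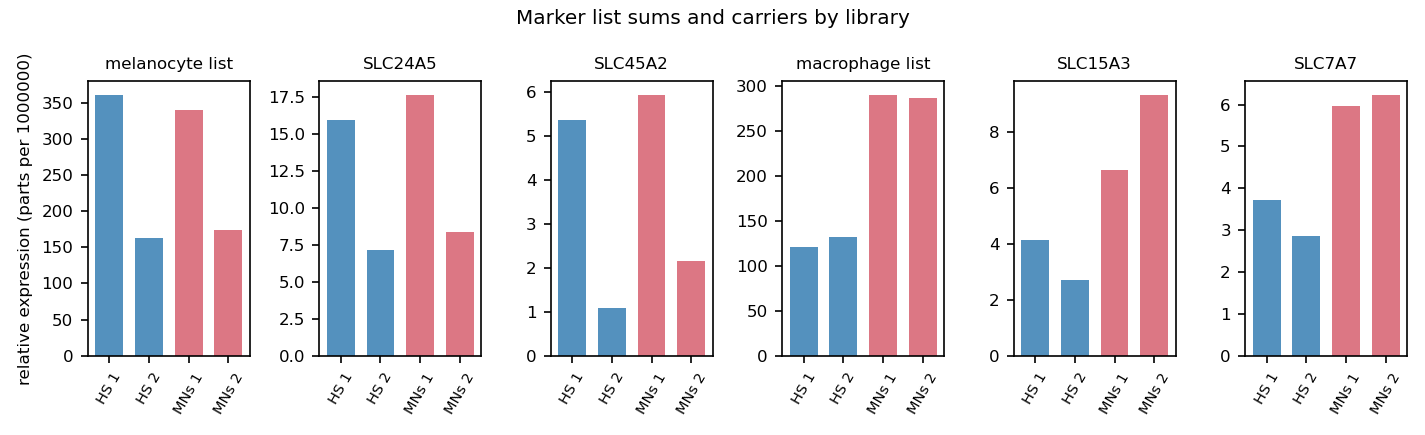
Relative expression (y axis, parts per 1000000 of the library total, a scale of its own in each panel) by library (x axis, HS blue, drug-loaded MNs red) for the sum of the melanocyte list, SLC24A5 and SLC45A2, and for the sum of the macrophage list, SLC15A3 and SLC7A7. In the first 3 panels replicate 1 is the higher library of each group, and in the last 3 both drug-loaded MNs libraries lie above both HS libraries.

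Of the SLC genes, 89 were below the filter. Of these, 16 were listed at 0 in all 4 libraries, 44 were above 0 in every library, and 11 reached 1 unit in at least 1 library. SLC14A1, SLC15A5 and SLC25A31 were above 0 in both drug-loaded MNs libraries and listed at 0 in both HS libraries, whereas SLC30A3 and SLC39A12 were above 0 in both HS libraries and listed at 0 in drug-loaded MNs. All values of these 5 genes were under 0.1 units, the highest being 0.0618, and they were not tested.

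Carriers and partners that have no SLC symbol were read beside the SLC genes. Of 35 in the list 22 were in the table and 21 of those were tested, 14 higher and 7 lower, with a median of 0.11. None was higher and 2 were lower at an unadjusted p under 0.05 (all genes 7.26% and 1.39%), and 0 passed an adjusted p of 0.05. MFSD2A, a lysophospholipid carrier, stood at 186 and 182 units in HS and at 80.0 and 69.9 units in drug-loaded MNs, a log2 fold change of -1.29 (SE 0.21, adjusted p 0.257 by limma). SLCO2A1, the prostaglandin carrier, stood at 29.6 and 29.8 units in HS and at 14.6 and 22.1 units in drug-loaded MNs, a log2 fold change of -0.70 (SE 0.28, adjusted p 0.534 by limma). Both were lower in each drug-loaded MNs library than in either HS library. EMB, a partner protein of monocarboxylate carriers, overlapped between groups, with 59.6 and 115 units in HS and 75.7 and 109 units in drug-loaded MNs.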

How the data were processed

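The authors deposited 1 table with 1 value per gene and library, a relative expression signal already averaged over cells that summed to a common total. Per the submitters' notes, Cell Ranger 2.1.1 and the mouse build mm10 were named, whereas the gene identifiers of the table are rabbit ones, so the build used is uncertain. How doublets were treated is not given in the sources used here, and single cells were not analysed. Low values did not fall on whole steps (18.6% to 21.7% lay within 0.1 of a step), so read counts were not recovered, depth is unknown and no count test was run. Here each library was rescaled to 1000000, genes with a mean of at least 1 were kept, and log2(value + 1) was fitted with limma 3.58.1 in R 4.3.3 (moderated, two-sided, Benjamini-Hochberg over all 9348 genes). In simulated data with 200 changed genes the fit recovered 26% at a log2 fold change of 1 and 98% at 2, and it made 3 calls where no gene was changed. How far these shares hold for the real libraries was not tested. Gene overlaps came from the RefSeq list of assembly mOryCun1.1.

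Named genes were the nucleoside and nucleobase carriers, a list of carriers of known role, up to 10 higher and 10 lower genes without overlap at an unadjusted p under 0.05, and the gene of smallest p in each class. Of the list, SLC2A3, SLC2A10, SLC3A2, SLC7A5, SLC1A5, SLC16A3, SLC39A4, SLC27A4 and SLC5A3 were not analysed here. Genes, lists and tests were chosen with earlier results of these data known. Alternatives covered scaling, pseudocount, filter, prior, replicate block and leaving out each library.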

Additional observations from a re-analysis of the deposited data

How the results depend on the processing

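All 16 SLC genes at an unadjusted p under 0.05 kept their direction under each alternative that gave them a value (12 to 14 of 14 per gene). They include SLC16A12, which passed the filter only through the drug-loaded MNs libraries and is not counted as support. Their groups do not overlap, so leaving out 1 library or changing the pseudocount could not turn a direction. Changes of filter, prior or block could not turn it either. Only the alternative scalings could have, and the direction was the same under each. With all 4 libraries, between 9 (quantile normalization) and 16 of them had that p. No SLC gene passed an adjusted p of 0.05 in a fit of all 4 libraries without a block. The replicate number as a block gave 1, SLC15A2 (log2 fold change 1.62), and 241 of all genes. Same-numbered libraries deviated together weakly (correlation 0.22 over all genes, 0.29 over SLC genes), the labels state no pairing, and the pairing of 2 libraries per group leaves 1 residual degree of freedom. The 9 higher genes became 4 under median ratio scaling, 2 under quantile normalization, 14 without a filter, 5 at a minimum mean of 5, and 5 to 11 with 1 library left out. The 7 lower genes became 12 under quantile normalization and 2 to 8 with 1 library left out. The SLC median of 0.11 became -0.0152 under median ratio scaling, -0.0698 under quantile normalization, and 0.00254 to 0.164 with 1 library left out. With 1 library left out, the lone library of its group was taken to vary like the other group.

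Directions turned in 10 of the genes named by rule, none of them at an unadjusted p under 0.05. Of the genes singled out after their values were seen, SLC22A4 (-0.592 to 0.339), SLC34A2 (-0.153 to 0.908) and SLC50A1 (-0.532 to 1.79) also turned with 1 library left out. The ranges of the genes named by rule follow. With 1 library left out, log2 fold changes ran from -0.0391 to 0.870 for SLC11A1, from -0.167 to 0.697 for SLC16A1, from -0.355 to 0.705 for SLC24A5, from -0.413 to 0.0342 for SLC25A3, from -0.0283 to 0.427 for SLC25A4, from -0.598 to 0.0119 for SLC25A5, from -0.145 to 0.258 for SLC29A1, from -0.797 to 0.756 for SLC40A1, from -0.0907 to 0.644 for SLC43A3, and from -0.442 to 1.16 for SLC45A2. SLC24A5 was -0.0375 under quantile normalization. SLC29A1 was -0.0108 under quantile normalization and -0.0859 with median ratio scaling. The cause of these changes was not tested. Unknown depth limits all low values, and 2 libraries per group limit every p.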
